A study of Mus musculus with 9 samples.

Results

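The Hox genes encode homeodomain transcription factors that mark position along the body axis, and 39 protein-coding members were examined here in lumbar dorsal root ganglia. Members were taken by symbol (Hoxa, Hoxb, Hoxc or Hoxd followed by a number alone), and all 39 were found by Ensembl identifier among the 55536 genes of the deposited count tables. The ganglia hold the cell bodies of sensory neurons with their glia and connective tissue, and came from adult C57Bl6 mice 1 month after tamoxifen. The icKO group, an inducible conditional knock-out, held 5 libraries in which Prdm12 had been targeted, a zinc finger regulator known from pain-sensing neurons. The control group held 4 libraries, given as wild type. The labels do not name the Cre driver, the deleted exon, or whether controls carried a floxed allele or Cre. Nor do they tie libraries to animals, so each p-value rests on the spread among these 9 libraries, some of which may be technical.

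The mouse Hox genes lie in 4 clusters on different chromosomes and are numbered into 13 paralog groups by their order in the cluster and their homeodomain. During development, low-numbered genes are switched on first and furthest towards the head, and high-numbered genes later and nearer the tail, and many cells keep the pattern of their level as adults. Genes of paralog group 10 are known for patterning the lumbar region in mice, and those of group 11 for the lumbosacral and sacral region. In the coordinates of mm10, HoxA lies on chromosome 6, HoxB spans 96194316 to 96368256 on chromosome 11, HoxC 102921103 to 103036852 on chromosome 15 and HoxD 74668310 to 74765142 on chromosome 2. Prdm12 also lies on chromosome 2.

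The 9 libraries held 19607740 to 29481589 counts. Levels are given as CPM, counts per 1000000 scaled with TMM factors, and comparisons between genes use CPM per kilobase of merged exons. Prdm12, the check on the labels, had 23.4, 24.2, 24.1, 22.3 and 26.2 CPM in icKO 1 to 5 and 128, 129, 116 and 163 CPM in control 1 to 4, so the groups were far apart. On the log2 scale icKO was at -2.48 relative to control, with an SE of 0.09 (adjusted p = 2.51e-08 in edgeR's quasi-likelihood fit). The defining markers of sensory neurons Isl1, Pou4f1 and Tlx3 were detected in every library. Summed over 6 muscle markers, icKO 1 and control 2 stood apart with 29.3 and 47.2 CPM against 3.37 to 12.65 CPM elsewhere. Summed over 9 spinal cord markers, control 4 stood apart with 39.3 CPM against 11.3 to 17.3 CPM elsewhere, and for 6 bone and cartilage markers control 3 did, with 41.0 CPM against 8.76 to 13.5 CPM. Of the 9 spinal cord genes, 7 had no count in at least 1 library, and of the 6 each for muscle and for bone and cartilage, 2 did.

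The ganglia of both groups carried a broad Hox profile that ended sharply after paralog group 10. Sums over a group depend on its number of members. This was 4 in groups 4 and 9, 3 in groups 1, 3, 5, 6, 8 and 10, and 2 in groups 2 and 7. The sums therefore do not rank the groups by level per member. Levels per kilobase, summed over each group's members, were highest for group 9, at 20.7 ± 1.94 in icKO and 23.1 ± 3.83 in control. Groups 7, 8 and 10 came next among groups 2 to 10, with 14.3 ± 0.683, 13.3 ± 1.11 and 14.8 ± 2.38 in icKO and 15.2 ± 1.65, 15.9 ± 2.17 and 14.6 ± 4.36 in control (SD, n = 5 icKO and 4 control throughout). Towards the head the sums were lower step by step, at 11.3 and 11.9 for group 6, 8.95 and 8.06 for group 5, 5.40 and 5.46 for group 4, 1.75 and 1.74 for group 3 and 0.920 and 0.802 for group 2, giving icKO before control. Group 1 broke this order with 13.7 ± 1.38 in icKO and 12.1 ± 0.930 in control, nearly all of it from Hoxd1. Group 11 summed to 0.2565 ± 0.297 in icKO and 0.2495 ± 0.291 in control. Of the 6 members of groups 12 and 13, Hoxa13, Hoxc12, Hoxc13 and Hoxd13 had no count in any library, Hoxd12 had 2 counts in all and Hoxb13 had 1.

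**Figure D1:**
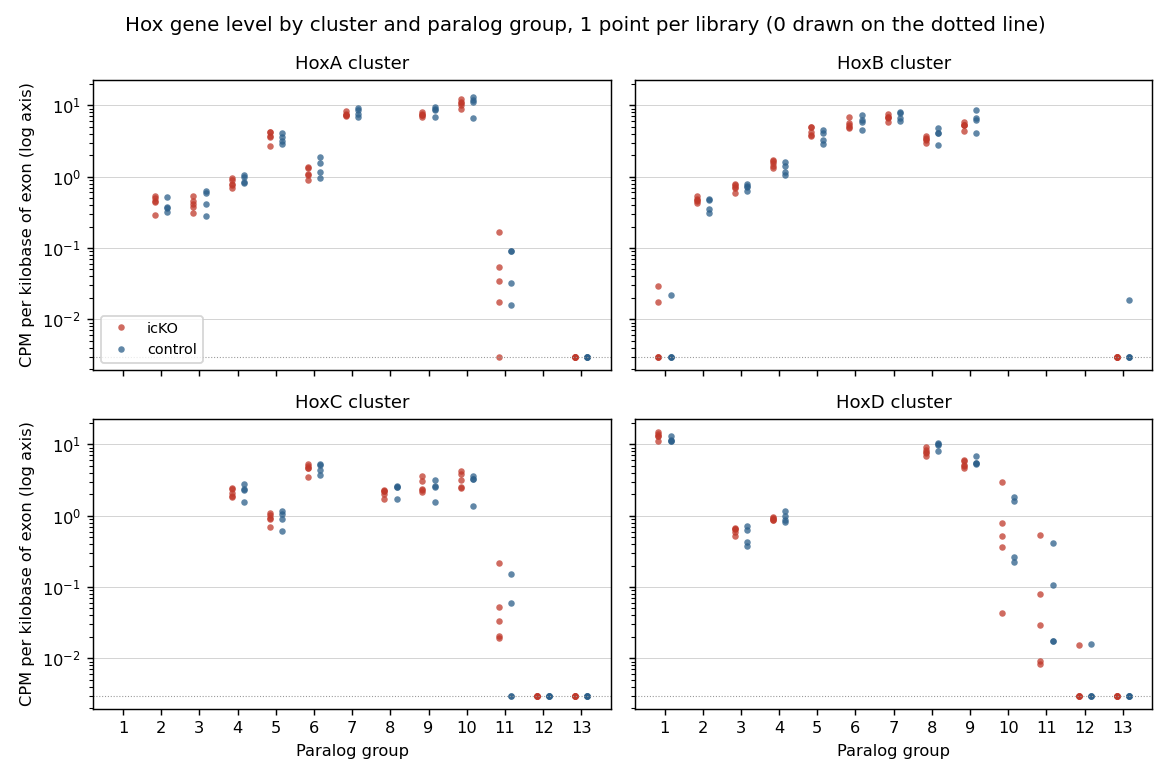
Level of Hox genes in CPM per kilobase of exon, on a log axis, by paralog group within each cluster, with 1 point per library, icKO to the left in red and control to the right in blue. Values of 0 sit on the dotted line. In HoxA and HoxB, levels climb from group 2 towards groups 7 to 10, with Hoxa6 and Hoxb8 below their neighbours. In HoxC they go down and up from Hoxc4 to Hoxc8 and climb from there to Hoxc10. In every cluster levels are at or near 0 beyond group 11. Hoxd1 stands far above Hoxb1, and Hoxd10 and Hoxd11 spread more widely between libraries than their neighbours.

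By single gene, the highest levels per kilobase belonged to Hoxd1, at 13.3 ± 1.31 in icKO and 11.7 ± 0.864 in control. Hoxa10 followed with 10.65 ± 1.19 in icKO and 10.8 ± 2.85 in control. Hoxd8 had 7.89 ± 0.834 and 9.63 ± 0.973, Hoxa9 7.47 ± 0.3997 and 8.46 ± 1.13, and Hoxa7 7.52 ± 0.471 and 7.97 ± 1.03, again in icKO and control. In icKO these 3 differed from each other by less than the SD of Hoxd8, and in control their libraries overlapped. The 4 clusters contributed unequally, with HoxA holding 40.0% ± 1.07 of all Hox counts in icKO and 40.5% ± 0.995 in control, HoxD 23.4% ± 1.89 and 23.5% ± 2.91, HoxB 23.0% ± 1.04 and 23.1% ± 1.13, and HoxC 13.6% ± 0.725 and 12.9% ± 1.13. These shares depend on transcript length as well as on expression.

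Of the 39 members, 29 passed the filter on low counts and were tested. In edgeR's quasi-likelihood fit 0 of the 29 passed an adjusted p of 0.05, against 0.852% of all 17258 tested genes (0.475% higher and 0.377% lower in icKO). At an unadjusted p under 0.05, 1 member was higher (Hoxd1) and 1 lower (Hoxd8), which is 6.90% of the 29, against 11.1% of all tested genes (4.85% higher and 6.26% lower). DESeq2 called 0 of the 29 as well, against 2.60% of the genes for which it gave an adjusted p. In 0 of the 29 did the libraries of the groups separate without overlap, against 4.50% of all tested genes. The log2 fold changes ran from -0.29 to 0.23, with 11 positive, 18 negative and a median of -0.08, beside a median of -0.00080 over all tested genes.

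The precision of these estimates differed between members. For 28 of the 29, the 95% interval of the fold change excluded a 2-fold difference in either direction, and for 20 it excluded a 1.5-fold one. The exception to the first was Hoxd10, whose interval ran from -1.80 to 1.78 on the log2 scale. The 10 members below the filter (Hoxa11, Hoxa13, Hoxb1, Hoxb13, Hoxc11, Hoxc12, Hoxc13, Hoxd11, Hoxd12 and Hoxd13) are described by their counts alone.

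**Figure D2:**
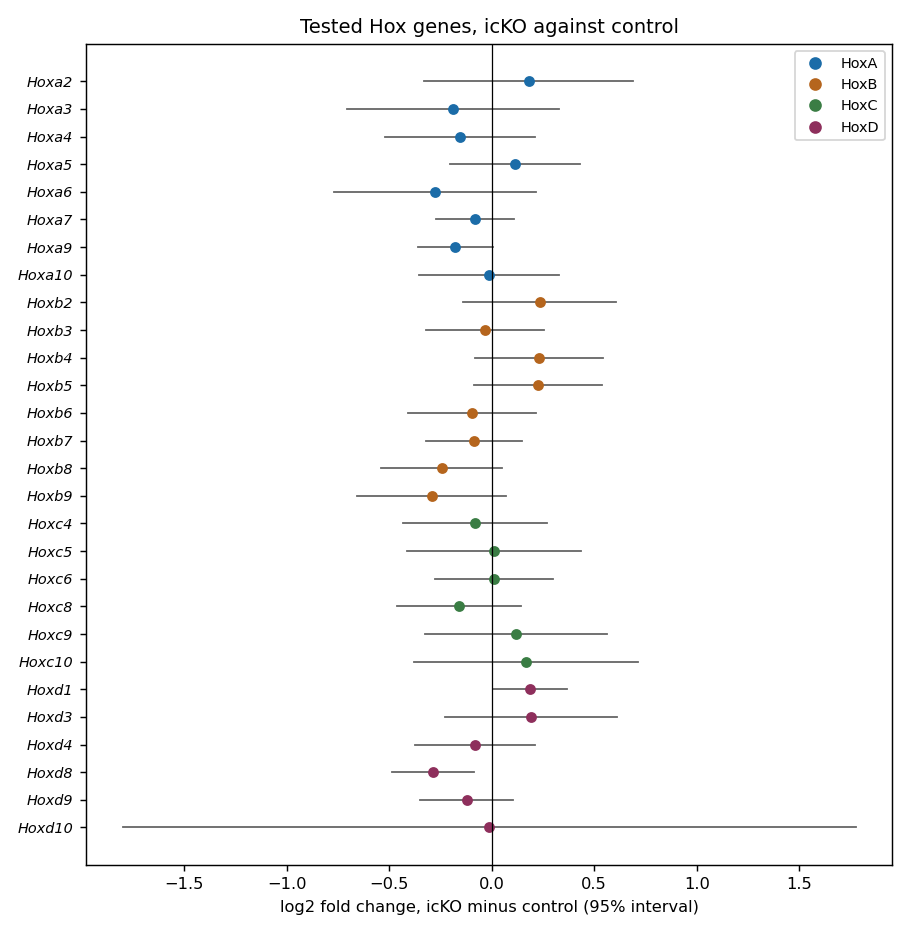
Log2 fold change of 28 of the 29 tested Hox genes, icKO minus control, with its 95% interval, ordered by cluster and paralog group and coloured by cluster. All estimates lie between -0.29 and 0.23, and the interval of Hoxd10 is the widest by far.

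Among the anterior members, paralog groups 1 to 3, Hoxd1 was the leading gene. In mice it is known from pain-sensing neurons, where it takes part in the wiring of their connections. The gene lies at chr2:74762980-74765142. It had 24.6, 24.8, 25.7, 21.1 and 27.8 CPM in icKO 1 to 5, and 24.2, 21.2, 21.03 and 20.7 CPM in control 1 to 4. The groups overlapped, since control 1 lay among the icKO libraries and icKO 4 among the other controls. Relative to control, icKO was at 0.19 on the log2 scale with an SE of 0.08 (unadjusted p = 0.0421, adjusted p = 0.425 in edgeR's fit). The 4 libraries with high Y-linked counts gave a log2 difference of 0.13 (2 against 2) and the 5 with low ones 0.25 (3 icKO against 2 control). The small unadjusted p of Hoxd1 came from these same libraries, so the split is no independent support.

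The other anterior genes were low. Hoxb2 ranged from 1.51 to 1.85 CPM in icKO and from 1.09 to 1.67 CPM in control. Hoxb3 ranged from 2.48 to 3.40 CPM in icKO and from 2.69 to 3.39 CPM in control. Hoxb1, the group 1 gene known for marking a single hindbrain segment, had 4 counts over all 9 libraries. In the GENCODE annotation 52.9% of the Hoxb3 exon bases are shared with the antisense gene Hoxb3os. Gm28230 shares 53.1% of the exon bases of Hoxd3 and 39.1% of those of Hoxd4, so the levels of Hoxb3, Hoxd3 and Hoxd4 are uncertain. The next largest overlaps were with antisense transcripts, at 35% for Hoxa11, 27.3% for Hoxb2 and 20.4% for Hoxa7. The same limit applies to the levels of these genes.

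Of the central members, groups 4 to 8, Hoxd8, at chr2:74704615-74707933, had the smallest p of all Hox genes. It had 20.5, 18.8, 22.6, 21.5 and 24.9 CPM in icKO 1 to 5, and 22.5, 28.4, 27.8 and 27 CPM in control 1 to 4. Control 1 fell within the icKO range, and the other 3 control libraries lay above it. The log2 difference of -0.29 had a 95% interval of -0.49 to -0.09 (unadjusted p = 0.00820, adjusted p = 0.218 in edgeR's fit). Split by Y-linked counts, the log2 difference was -0.36 in the 4 libraries where they were high and -0.27 in the other 5. These subsets hold the libraries in which Hoxd8 stood out by its p, so they are no independent support.

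Central genes of HoxB differed in sign from each other. Hoxb8, known in mice from grooming behaviour and spinal sensory circuits, had 7.77, 9.18, 9.68, 8.59 and 8.80 CPM in icKO and 7.40, 10.7, 12.7 and 10.9 CPM in control, a log2 difference of -0.24 ± 0.14 (SE; adjusted p = 0.568, edgeR). Hoxb4, known from work on blood stem cells, had 3.94, 3.45, 4.39, 3.66 and 4.26 CPM in icKO and 2.75, 4.08, 2.99 and 3.66 CPM in control, a log2 difference of 0.23 ± 0.14 (SE; adjusted p = 0.619, edgeR). For both genes control 1 was the lowest library, and the ranges overlapped. Without control 1 the log2 difference was -0.38 for Hoxb8 and 0.14 for Hoxb4. Without control 3 that of Hoxb8 was -0.12, and without control 2 that of Hoxb4 was 0.34. Hoxb5 ranged from 10.2 to 13.7 CPM in icKO and from 7.88 to 12.7 CPM in control, and Hoxb6 from 9.39 to 13.7 and from 8.72 to 14.4 CPM. Hoxa7 lay between 20.7 and 23.9 CPM in icKO and between 19.6 and 26.2 CPM in control. Hoxc4 lay between 4.66 and 6.27 CPM in icKO and between 4.03 and 7.25 CPM in control.

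Group 9 held the member with the most counts. Hoxa9 (chr6:52223100-52231089), which marks trunk levels together with its paralogs, had 38.8, 41.1, 45.0, 41.4 and 42.2 CPM in icKO and 38.1, 52.6, 49.6 and 48.6 CPM in control. All icKO libraries lay below controls 2 to 4 and above control 1. The log2 difference was -0.18 ± 0.08 (SE; adjusted p = 0.466, edgeR). Hoxb9 had 11.2, 13.8, 14.8, 13.8 and 13.5 CPM in icKO and 10.4, 17.2, 22.0 and 15.9 CPM in control, a log2 difference of -0.29 ± 0.17 (SE; adjusted p = 0.583, edgeR). Control 1 was again the lowest of the 9 libraries for both genes, and control 3 the highest for Hoxb9. Without control 1 the log2 difference was -0.46 for Hoxb9 and -0.27 for Hoxa9, without control 3 that of Hoxb9 was -0.10, and without control 2 that of Hoxa9 was -0.12. Adjusted p-values with 1 library left out ran from 0.135 to 0.916 for Hoxb9 and from 0.0850 to 0.731 for Hoxa9 in edgeR's fit.

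The group 10 genes, which in mice are needed for lumbar vertebrae without ribs and for lumbar motor neuron identity, did not share a level or a spread. Hoxa10 (chr6:52231197-52240854) had 33.3, 29.1, 39.6, 35.9 and 36.2 CPM in icKO and 21.9, 43.4, 38.9 and 36.7 CPM in control. Every icKO library lay between control 1 and control 2. Hoxc10 (chr15:102966796-102971893) had 4.81, 5.97, 8.04, 4.69 and 7.23 CPM in icKO and 2.603, 6.29, 6.31 and 6.85 CPM in control. Control 1 was the lowest library here too, and icKO 3 the highest. The log2 differences were -0.02 ± 0.16 for Hoxa10 and 0.17 ± 0.25 for Hoxc10 (SE; adjusted p = 0.989 and 0.879, edgeR).

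Hoxd10, at chr2:74691924-74695105, varied far more between libraries of the same group than between the groups. It had 1.45, 0.0775, 0.662, 0.946 and 5.41 CPM in icKO 1 to 5, from 43, 2, 19, 23 and 137 counts. In control 1 to 4 it had 0.476, 2.90, 0.401 and 3.30 CPM, from 13, 71, 11 and 64 counts. High values thus occurred in both groups, in icKO 5 and in controls 2 and 4, and the lowest was icKO 2. Exact Poisson 95% intervals, which cover counting error only, were 4.54 to 6.395 CPM for icKO 5 and 0.00938 to 0.280 CPM for icKO 2, and these intervals did not overlap. The SD of log2 CPM within groups was 1.72, against a median of 0.33 over 782 genes of like level, of which 3 varied more. The log2 difference was -0.01 ± 0.82 (SE; adjusted p = 0.997, edgeR), and it moved to -1.10 without icKO 5 and to 0.46 without control 4.

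Hoxd11, at chr2:74679557-74687016 and the next gene on the caudal side, showed the same libraries at the top. It had 0.336, 0.0387, 0.0348, 0.123 and 2.29 CPM in icKO, from 10, 1, 1, 3 and 58 counts. In control it had 0.0733, 0.449, 0.0729 and 1.75 CPM, from 2, 11, 2 and 34 counts. The 4 libraries highest in Hoxd10 (icKO 5, control 4, control 2 and icKO 1) were also the 4 highest in Hoxd11, in the same order. Hoxc11, its paralog in HoxC, was highest in icKO 5 with 11 counts and in control 4 with 6, and had 0 to 3 counts in each of the others. Hoxa11 did not follow, with 11 counts in icKO 3, 1 in icKO 5 and 0 to 5 elsewhere. Hoxc11 and Hoxa11 were chosen for description after their values were seen. The exons of Hoxd10 and Hoxd11 share 5.73% and 10.8% of their bases with Gm28309, a transcript on the same strand that joins them.

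The neighbour of Hoxd10 on the other side did not vary in this way. Hoxd9 had 10.5, 10.8, 12.9, 10.1 and 12.4 CPM in icKO and 11.4, 14.6, 11.8 and 11.6 CPM in control, with an SD of log2 CPM within groups of 0.16 beside a median of 0.14 for genes of like level. Of the libraries high in Hoxd10 and Hoxd11, control 4 had the highest sum of spinal cord markers, and icKO 1 and control 2 had the highest sums of muscle markers. In icKO 5, the library highest in Hoxd10, Hoxd11 and Hoxc11, these sums were 15.5 and 5.45 CPM, within the range of the other libraries, and its bone and cartilage sum was 9.002 CPM. Summed over 4 Y-linked genes, icKO 5, control 4 and control 2 had 0.316, 0.670 and 0.123 CPM and icKO 1 had 165 CPM. The 3 libraries lowest in Hoxd10 had 147 CPM in icKO 2 and 98.1 and 160 CPM in controls 3 and 1. The remaining libraries, icKO 3 and icKO 4, had Y-linked sums of 0.1045 and 3.58 CPM. Their Hoxd10 levels, 0.662 and 0.946 CPM, lay below that of icKO 1. The part of any of these markers in the spread of Hoxd10 and Hoxd11 was not tested.

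**Figure D3:**
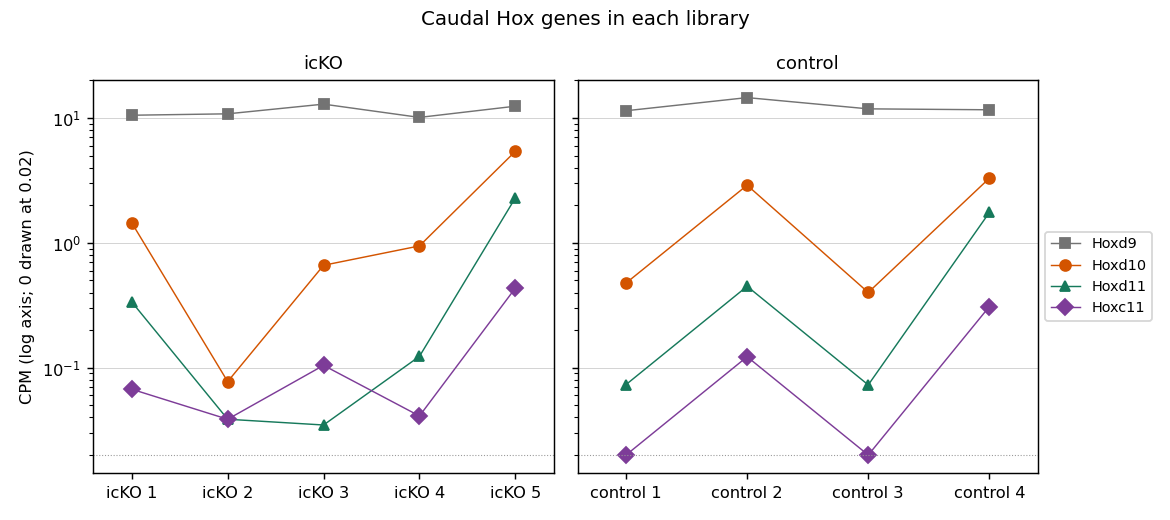
CPM of Hoxd9, Hoxd10, Hoxd11 and Hoxc11 in each library, on a log axis, with icKO in the left panel and control in the right and values of 0 drawn on the dotted line. Lines only join the points of 1 gene, since libraries have no order. Hoxd9 stays between 10.1 and 14.6 CPM in all 9 libraries, while Hoxd10 and Hoxd11 are highest in icKO 5, control 4 and control 2.

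The start regions of these HoxD neighbours are shown because members beside each other on the chromosome differed so much in spread. RefSeq windows on GRCm38.p6, from 250 bases before to 50 after the start site, were matched by symbol for 22 of the 39 members, with 24 windows in all. Capitals mark any match, on either strand, to CCAAT, to TATAAA, to TGATTNAT (a pattern bound by Hox and Pbx proteins together) or to TTTATNG (a pattern close to that of caudal homeodomain proteins). All windows below lie on the plus strand of chromosome 2, and are given 5′ to 3′ at chr2:74762730-74763029 for Hoxd1, chr2:74704365-74704664 for Hoxd8, chr2:74697513-74697812 for Hoxd9, chr2:74691641-74691940 for Hoxd10 and chr2:74682073-74682372 for the downstream of 2 Hoxd11 starts.
Hoxd1: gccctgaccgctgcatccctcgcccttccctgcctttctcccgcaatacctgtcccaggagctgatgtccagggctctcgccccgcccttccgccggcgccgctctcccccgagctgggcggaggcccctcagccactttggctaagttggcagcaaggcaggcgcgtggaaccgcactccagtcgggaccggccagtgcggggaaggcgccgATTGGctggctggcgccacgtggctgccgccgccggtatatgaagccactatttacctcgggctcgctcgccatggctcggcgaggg
Hoxd8: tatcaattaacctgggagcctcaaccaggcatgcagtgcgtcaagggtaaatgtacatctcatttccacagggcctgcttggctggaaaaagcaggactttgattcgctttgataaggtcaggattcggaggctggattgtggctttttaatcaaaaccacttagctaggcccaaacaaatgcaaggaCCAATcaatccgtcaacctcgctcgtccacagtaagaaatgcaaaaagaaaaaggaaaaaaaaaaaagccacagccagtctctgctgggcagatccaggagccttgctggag
Hoxd9: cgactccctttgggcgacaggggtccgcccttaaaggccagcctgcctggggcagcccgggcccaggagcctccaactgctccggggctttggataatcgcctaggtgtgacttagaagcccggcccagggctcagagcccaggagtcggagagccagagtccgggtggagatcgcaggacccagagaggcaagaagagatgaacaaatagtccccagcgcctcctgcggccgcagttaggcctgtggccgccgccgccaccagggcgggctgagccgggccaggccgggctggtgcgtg
Hoxd10: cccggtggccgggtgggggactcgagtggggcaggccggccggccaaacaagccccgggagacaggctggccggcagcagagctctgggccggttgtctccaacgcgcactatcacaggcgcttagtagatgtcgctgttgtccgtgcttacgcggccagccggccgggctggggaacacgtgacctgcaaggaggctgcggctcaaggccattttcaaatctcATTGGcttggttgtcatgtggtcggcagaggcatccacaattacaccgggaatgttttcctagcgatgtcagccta
Hoxd11: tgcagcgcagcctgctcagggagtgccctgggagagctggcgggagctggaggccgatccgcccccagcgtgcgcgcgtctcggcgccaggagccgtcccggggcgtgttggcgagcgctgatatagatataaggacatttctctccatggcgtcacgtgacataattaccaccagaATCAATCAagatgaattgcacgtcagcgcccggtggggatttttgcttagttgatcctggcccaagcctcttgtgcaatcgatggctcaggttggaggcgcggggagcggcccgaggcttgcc

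A CCAAT match was found in the windows of Hoxd1, Hoxd8 and Hoxd10, and a TGATTNAT match in the downstream window of Hoxd11. Hoxd9 held none of the 4 patterns, and neither did the upstream Hoxd11 window, which is not printed. The upstream start of Hoxd11 lay 1 base from the annotated gene start and the downstream one 2766 bases from it. Over the 24 Hox windows, 62.5% held CCAAT, against 37.4% of the 32851 windows of all genes. The shares were 8.33% against 3.22% for TGATTNAT, 8.33% against 10.9% for TTTATNG and 16.7% against 13.6% for TATAAA. Median GC content was 57.7% in the Hox windows and 52.7% in all windows, and the median ratio of observed to expected CpG was 0.626 and 0.384. These matches describe the letters of the windows alone. GC content was 68.3% for Hoxd9, 62.7% for Hoxd10 and 46.7% for Hoxd8.

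The other 12 tested members (Hoxa2, Hoxa3, Hoxa4, Hoxa5, Hoxa6, Hoxb7, Hoxc5, Hoxc6, Hoxc8, Hoxc9, Hoxd3 and Hoxd4) gave log2 differences between -0.28 for Hoxa6 and 0.19 for Hoxd3, with adjusted p-values of 0.738 to 0.993 in edgeR's fit. Hoxb7 and Hoxc6 were the highest of them, with 9.12 to 11.7 and 8.44 to 12.95 CPM in icKO and 9.31 to 12.6 and 8.87 to 12.6 CPM in control. Hoxa5, known in mice for lung and neck patterning, had 5.07 to 8.04 CPM in icKO and 5.39 to 7.59 CPM in control. In each of the 12 the ranges of icKO and control overlapped.

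Across all members, 22 of the 29 tested genes had an SD of log2 CPM within groups above the median of genes of like level. By definition, as many genes of like level lie above that median as below it. Some of the excesses were small, as for Hoxd9 at 0.16 beside 0.14. The members were measured in the same libraries, so the 22 are not separate observations. Besides Hoxd10, the widest for their level were Hoxa10 at 0.31 (17 of 1345 genes of like level varied more), Hoxb9 at 0.32 (44 of 1069) and Hoxc10 at 0.50 (36 of 764). The low libraries were often the same ones. Of the 22 tested members of groups 4 to 10, 12 were lowest in control 1, 6 in icKO 2 and 4 in any of the other 7 libraries. With the anterior members added, 13 of all 29 were lowest in control 1 and 7 in icKO 2. The share of all tested genes lowest in each library was not counted. All 39 Hox genes together summed to 262, 257, 305, 276 and 298 CPM in icKO 1 to 5 and to 232, 322, 310 and 308 CPM in control 1 to 4.

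**Figure D4:**
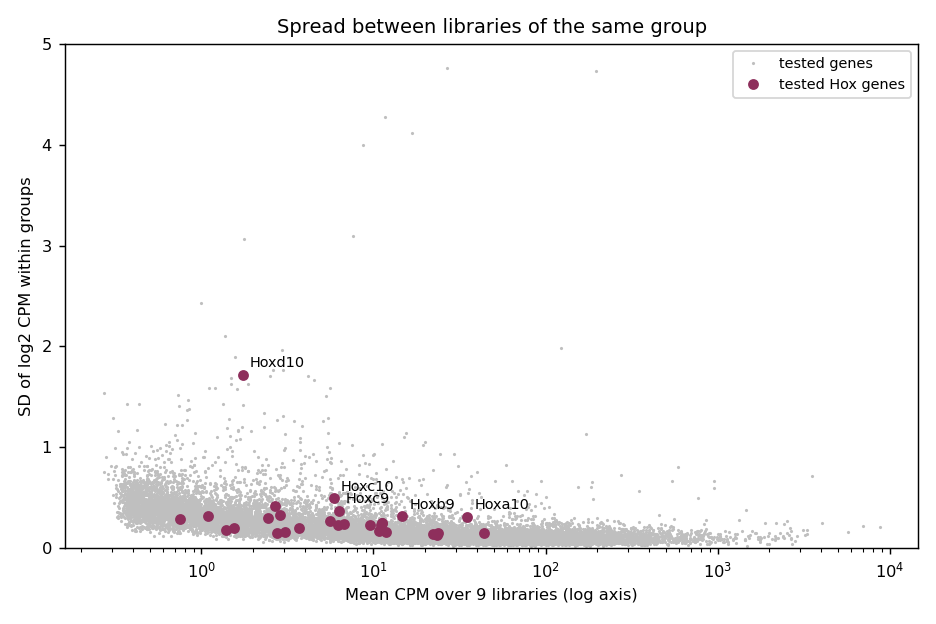
SD of log2 CPM within groups against mean CPM over the 9 libraries, on a log horizontal axis, for tested genes in grey and 28 of the 29 tested Hox genes in purple. Hoxd10, at an SD of 1.72, lies far above nearly all genes of its level, and Hoxc10, Hoxc9, Hoxb9 and Hoxa10 lie above the bulk of theirs.

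The libraries with the lowest Hox sums, control 1 and icKO 2, also had the lowest sums of connective tissue and of macrophage markers. The 6 fibroblast and meninges markers (Col1a1, Dcn, Lum, Pdgfra, Ptgds and Aldh1a2) summed to 1142, 645, 1622, 1610 and 973 CPM in icKO 1 to 5 and to 524, 1137, 1046 and 1121 CPM in control 1 to 4. Control 1 and icKO 2 thus had the smallest sums for both the Hox genes and these markers. Among the other libraries the orders differed, as icKO 4 had a Hox sum of 276 CPM beside 1610 CPM for these markers. The 5 macrophage markers also summed lowest in control 1 and icKO 2, at 46.3 and 55.7 CPM, against 59.0 to 100.7 CPM elsewhere. Schwann cell markers were lowest in control 1, satellite glia markers in icKO 5 and endothelial and mural markers in control 3. The 8 sensory neuron markers were highest in control 1, at 5597 CPM, against 4298 to 5066 CPM in icKO and 4808 to 5071 CPM in the other control libraries. All 6 connective tissue markers were detected in every library. Both libraries were also among the 4 with high Y-linked sums, where icKO 2 had 147 CPM and control 1 had 160 CPM. In whole ganglia, fewer cells of a type cannot be told apart from less RNA per cell, and the part of these markers and of the Y-linked difference in the Hox levels was not tested. Hoxd1 ran the other way within control, where control 1 had its highest value.

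**Figure D5:**
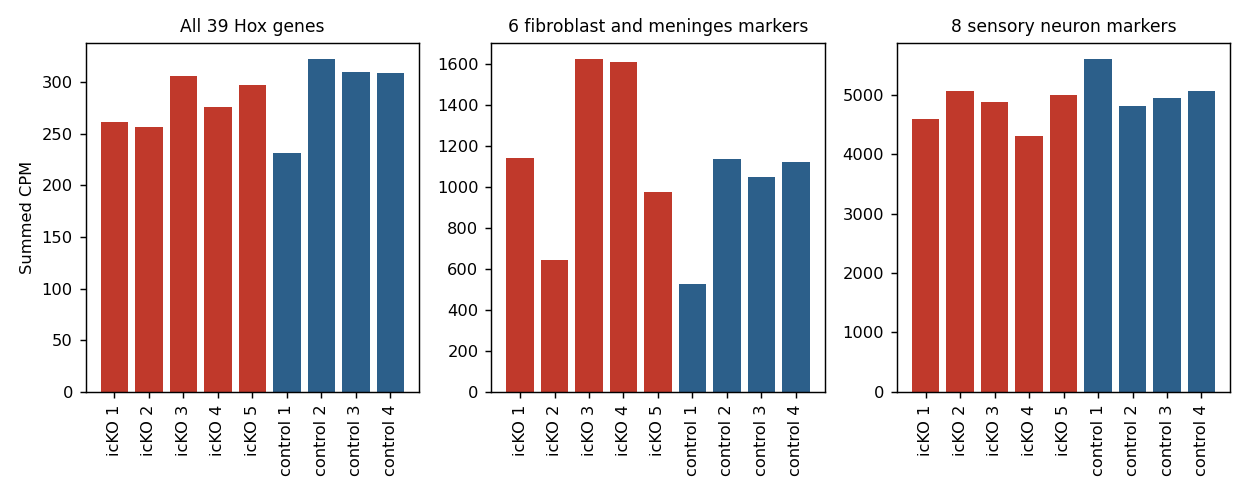
Summed CPM in each library for all 39 Hox genes, for 6 fibroblast and meninges markers and for 8 sensory neuron markers, with icKO in red on the left and control in blue on the right of each panel and bars starting at 0. Control 1 has the lowest bar in the first 2 panels, at 232 and 524 CPM, and the highest in the last, at 5597 CPM.

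The balance along the axis was compared as a share of Hox counts, with no test since a sum over members is a score. Groups 10 to 13 held 15.3%, 13.8%, 16.0%, 15.2% and 17.4% in icKO 1 to 5 and 10.8%, 16.6%, 14.8% and 15.9% in control 1 to 4. The icKO libraries lay between the lowest control and just above the highest. Groups 1 to 3 held 12.98% ± 0.847 in icKO and 11.5% ± 2.39 in control, groups 4 to 8 45.4% ± 1.204 and 46.0% ± 0.927, and group 9 26.1% ± 1.13 and 28.0% ± 1.06. By cluster, the summed levels were 112 ± 8.02 and 119 ± 19.2 CPM for HoxA, 64.2 ± 4.93 and 67.8 ± 11.7 CPM for HoxB, 38.2 ± 4.59 and 38.0 ± 8.05 CPM for HoxC, and 65.3 ± 7.80 and 68.0 ± 4.11 CPM for HoxD, in icKO and control. Each of these cluster differences was smaller than the SD of at least 1 of the groups.

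Genes that work with or on the Hox genes were counted from the same fit, in which 0.852% of all tested genes passed and 11.1% had an unadjusted p under 0.05. In lists as short as these, a count of 0 past the adjusted threshold lies near the 0.852%. Hox proteins bind DNA together with TALE homeodomain partners, and of 9 such genes (Pbx, Meis and Pknox families) 9 were tested and 0 passed in edgeR's fit, where unadjusted p-values under 0.05 occurred once in each direction. Pbx3 averaged 19.1 ± 1.53 CPM in icKO against 16.2 ± 1.89 CPM in control, a log2 difference of 0.23 ± 0.09 (SE; adjusted p = 0.342, edgeR). Meis2 averaged 21.7 ± 1.63 CPM in icKO against 24.8 ± 0.4221 CPM in control, without overlap between the groups, a log2 difference of -0.20 ± 0.07 (SE; adjusted p = 0.259, edgeR). Of 26 Polycomb group genes, which keep silent Hox genes repressed, 0 passed and 0 had an unadjusted p under 0.05 by edgeR. Rnf2, a catalytic subunit gene of the complex that modifies histone H2A, was at 0.17 (SE 0.09, adjusted p = 0.504). Of 12 genes of the opposing Trithorax complexes and H3K27 demethylases, 0 passed and 1, Ash2l, was lower at an unadjusted p under 0.05 (-0.19, SE 0.09, adjusted p = 0.443). Ash2l had 66.8 CPM in control 1, while the other controls, at 47.4 to 54.4 CPM, overlapped icKO at 46.0 to 51.1 CPM. Kmt2c, a histone methyltransferase gene of this list, was at 0.13 (SE 0.07, adjusted p = 0.502). Medians were -0.02, -0.00070 and 0.00720 for the 3 lists.

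Of 10 upstream axial regulators, 6 were tested and 0 passed by edgeR, and 1 was lower at an unadjusted p below 0.05. It was Gdf11, which encodes a secreted signal known in mice for setting the level at which caudal Hox genes start. It had 18.5 ± 2.18 CPM in icKO and 24.9 ± 3.13 CPM in control, a log2 difference of -0.43 ± 0.10 (SE; unadjusted p = 0.00121, adjusted p = 0.0810, edgeR), with icKO 3 and control 2 the overlapping libraries. Rarg, a retinoic acid receptor gene, was at 0.14 (SE 0.09, adjusted p = 0.602). The caudal genes Cdx2 and Cdx4, which act on Hox genes in embryos, had no count in any library, and Cdx1 had 4 counts in all.

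Noncoding genes inside the clusters were counted in the same way. Of 49 annotated within 20 kb of the outermost Hox genes, 13 were tested and 0 passed by edgeR, near the 0.852% of all tested genes. Of the 13, 1 was higher at an unadjusted p under 0.05, against 4.85% of all tested genes. The median log2 fold change of the 13 was 0.14, and 18 of the 49 had no count at all. The 4 with the highest CPM were Haglr, Gm53, Hoxaas2 and Hoxd3os1. Haglr, a long noncoding RNA gene of HoxD, had 13.6, 11.9, 13.2, 11.3 and 12.0 CPM in icKO and 10.9, 11.3, 10.1 and 10.7 CPM in control. Its groups overlapped only where icKO 4 and control 2 met, and the log2 fold change was 0.20 (SE 0.08, unadjusted p = 0.0294, adjusted p = 0.368). Gm53 had 6.97 CPM in icKO and 8.48 CPM in control, Hoxaas2 4.75 and 4.29 CPM, and Hoxd3os1 4.202 and 3.86 CPM, with adjusted p-values of 0.679, 0.778 and 0.762 by edgeR. Hotair, a noncoding gene of the caudal end of HoxC that was picked after its counts were seen, had 8 counts in all, and icKO 5 had 0.158 CPM, the highest of the 9 libraries. Whether reads of antisense genes were kept apart from those of the Hox genes they overlap is unknown, since the strand setting is not given.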

How the data were processed

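Messenger RNA of 5 icKO and 4 control libraries was analysed from raw read counts per gene, 1 deposited table per library with no header. The submitters' processing notes name featureCounts 1.5.0-p1, STAR 2.5.2a and bcl2fastq 2.20.0.422, on mm10, as tools of the authors. Which annotation release was counted, and with what strand and multiple-mapping settings, is not given in the sources used here. All 55536 identifiers were found in GENCODE M21 on the same build, which gave symbols, positions and merged exon lengths; exon lengths may differ from those counted. Groups were taken from the library titles.

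Genes were kept with filterByExpr by group (minimum count 10, minimum total 15), leaving 17258. Counts were scaled with TMM and tested unpaired with edgeR 4.0.16 in R 4.3.3 (quasi-likelihood, Benjamini-Hochberg over all tested genes, threshold 0.05). Each SE was obtained as the absolute log2 fold change over the square root of F, and log2 CPM used a prior count of 2. Genes of like level lie within 0.25 log2 CPM of a member's mean. Alternatives included DESeq2 1.42.0. The fit was tested on simulated data. Members, gene lists and rules were chosen with earlier results of these data known. The text names the member highest per kilobase in each paralog group, the 6 with the smallest p, the 3 with the largest spread, and from other lists those past the threshold or the 2 with the smallest p; for noncoding genes, the 4 highest. Some genes that met this rule are not reported here. Libraries of a group differed by more than sampling noise (chi-square per degree of freedom 6.00 to 23.1). A floor of 3 counts equals 0.101 to 0.155 CPM, counting error only.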

Additional observations from a re-analysis of the deposited data

Results flagged for a closer look

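Of 74 combinations of a group with a Hox gene or sum, 9 held a library far from the rest of its group by Dixon's criterion, which chance meets in about 1 of 20. Control 1 stood below the other control libraries for Hoxc8 (4.91 CPM, others 7.14 to 7.33), Hoxc10 (2.603 CPM, others 6.29 to 6.85), the HoxA sum (90.5 CPM, others 126.3 to 132) and the HoxC sum (26.0 CPM, others 40.5 to 42.8), and above them for Hoxd1 (24.2 CPM, others 20.7 to 21.2). Hoxd9 was high in control 2 (14.6 CPM, others 11.4 to 11.8). In icKO 5, the caudal genes Hoxd10 (5.41 CPM, others 0.0775 to 1.45), Hoxd11 (2.29 CPM, others 0.0348 to 0.336) and Hoxc11 (0.434 CPM, others 0.0387 to 0.104) all stood above the other icKO libraries.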

How the results depend on the processing

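Across the 19 alternatives 0 Hox genes passed the threshold, and the smallest adjusted p of any Hox gene was 0.0850, for Hoxa9. Over all genes, 82 were higher and 65 lower in icKO, against 172 and 221 with no count filter, 197 and 234 with DESeq2, 28 and 20 with the replicate number as a block, and 48 and 29 without icKO 5 and control 4 together. Leaving out 1 library gave 45 to 85 higher and 33 to 90 lower genes, with the fewest in both directions without icKO 1 and the most without control 2. The numbers were not taken as pairs, since the labels do not say that a replicate number is shared between groups. Same-numbered libraries deviated with correlations of 0.103, -0.175, -0.0440 and 0.170. For 28 tested Hox genes, signs changed in 32 of 531 combinations of gene and alternative, over 10 genes, and the cause was not tested. With 1 library left out, log2 fold changes ranged from -0.19 to 0.10 for Hoxa10, -0.0927 to 0.0293 for Hoxb3, -0.22 to 0.0233 for Hoxb6, -0.23 to 0.0577 for Hoxc4, -0.16 to 0.13 for Hoxc5, -0.0856 to 0.095 for Hoxc6, -0.059 to 0.27 for Hoxc9, -0.0765 to 0.28 for Hoxc10, -0.14 to 0.022 for Hoxd4 and -1.10 to 0.46 for Hoxd10. With the replicate block, Hoxa10 was at 0.0019, Hoxc5 at -0.0149 and Hoxc6 at -0.0169. Hoxd10 was at 0.11 with Y-linked expression as a covariate, and Hoxd4 at 0.0224 without icKO 5 and control 4. With Hoxd10 plus Hoxd11 as a covariate, Hoxa10 was at 0.0137 and Hoxd10 at 1e-04. The value for Hoxd10, whose sign change is among the 32, was largely fixed in advance, since its own counts enter the covariate. This covariate and the joint omission of icKO 5 and control 4 were chosen after seeing the data. The share of Hox counts held by groups 10 to 13 differed by 0.97 points between icKO and control, and by -0.26 to 1.66 with 1 library left out. Low counts limit Hoxd10 and the members of groups 11 to 13.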

Other observations

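The summed level of Hoxd10 and Hoxd11, as log2 of CPM with 0.25 added, was entered as a term beside the group in edgeR's fit to ask which genes followed these 2 caudal genes from library to library. This fit was chosen after the data were seen. Past the adjusted threshold for this term was 1 gene, Hoxd10 itself, whose counts make up the term, and the smallest adjusted p of any other gene was 0.505. With the term, 84 genes were higher and 69 lower in icKO, against 82 and 65 without it.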
